A study of Homo sapiens with 4 samples.

Results

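PI3K, AKT and phospholipase C gamma 1 form the branch of growth factor receptor signalling that starts from the membrane lipid PIP2, and 8 of its genes were followed upon CEBPG knockdown. The genes were PLCG1, PIK3R1, PIK3R2, PIK3CA, PIK3CB, PIK3CD, AKT1 and AKT2. They were taken by symbol from the deposited table, and all 8 were found among its 16504 gene symbols. RNA-seq was performed on 4 libraries labelled as the human acute promyelocytic leukemia line NB4, with 2 control libraries (labelled NC, CEBPG presence) and 2 CEBPG knockdown libraries (labelled CEBPG3). In the study methods, a short hairpin RNA (shRNA) in a lentiviral vector lowered CEBPG, a leucine-zipper transcription factor, in puromycin-selected cells, and the comparison was with shRNA control cells. Both knockdown libraries carry the same label, which does not say which hairpin or hairpins were used, so an effect of CEBPG loss and an effect of a hairpin on other transcripts cannot be told apart. The labels do not say whether the libraries of a group came from separate cultures, so p-values measure the spread between these libraries, which may be technical.

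In this pathway a class I PI3K is a pair of a regulatory subunit, which binds activated receptors and adaptors, and a p110 catalytic subunit, which phosphorylates PIP2 to PIP3. PIP3 recruits the kinase AKT to the membrane, where it is activated and acts on growth, metabolism and survival proteins. PLCG1 cleaves the same lipid into IP3, which releases calcium, and diacylglycerol, which activates protein kinase C and RASGRP exchange factors. In blood cells both arms are driven by cytokine receptors and by SRC-family and SYK kinases.

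Values were FPKM (fragments scaled to transcript length and to the mapped total of the library) summed over the transcripts of a gene, so that levels can be compared between genes. The 4 libraries summed to between 345340 and 366139 FPKM, and their read depth was unknown. CEBPG was at 17.1 and 18.1 FPKM in controls 1 and 2, against 6.91 and 7.96 FPKM in knockdowns 1 and 2 (42.2% of the control mean). Marker genes did not follow the cell line label. Of 9 promyelocyte granule and myeloid markers in the table, 3 (CD33, LYZ and SPI1) reached 1 FPKM in every library, whereas the granule genes AZU1 and PRTN3 lay at or under 0.570 FPKM. Of 14 erythroid markers, 13 reached 1 FPKM in every library, with sums of 8025 to 8491 FPKM in the controls and 8927 to 9490 FPKM in the knockdowns, and of 13 tested 2 were called higher and 3 lower. Of 4 T cell markers in the table, CD3D and CD3G were expressed and were higher in the knockdowns (list sums of 36.4 and 37.2 FPKM against 75.4 and 65.0 FPKM), while CD3E and CD2 were at most at 0.0848 FPKM. The 2 B cell markers in the table summed to 0.394 to 0.749 FPKM. Whether these markers had any part in the results for the 8 genes was not tested. In bulk RNA, fewer cells of a type and less RNA per cell cannot be told apart.

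Upon CEBPG knockdown, 3 of the 8 genes fell and none rose. PLCG1, PIK3R2 and PIK3CD were lower, at 58.3%, 67.3% and 74.6% of the control mean, and the other 5 (PIK3R1, PIK3CA, PIK3CB, AKT1 and AKT2) lay between 93.9% and 107% of it. Testing was limited to genes averaging 1 FPKM or more, a level that all 8 reached in every library, and a call was an adjusted p under 0.05 in limma on log2(FPKM + 1). Over all 10968 genes tested, 20.9% were called, 9.99% lower and 10.9% higher. The 8 genes were chosen with earlier results of these data known. The study had also picked PLCG1 and PIK3R2 for qRT-PCR in NB4 after its RNA-seq. The 3 lower calls among 8 are therefore no test against that background. None of the 8 passed an unadjusted p under 0.05 together with an absolute log2 fold change over 1, which 0.602% of all genes passed. The 2 groups did not overlap in 4 of the 8 genes, the same 3 and PIK3CB, against 64.8% of all genes, so that non-overlap alone says little here.

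**Figure D1:**
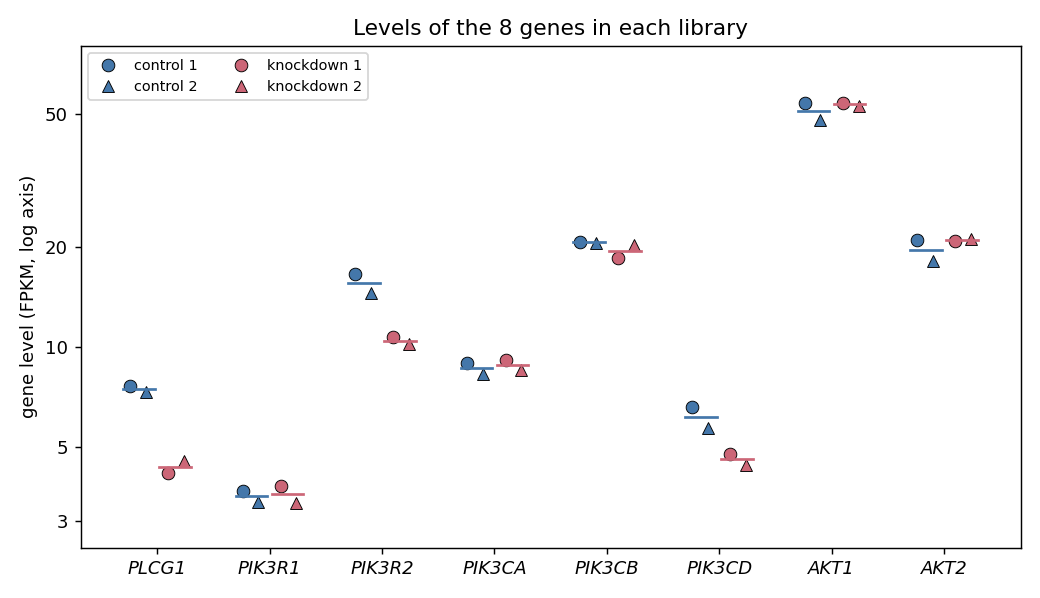
Level of each of the 8 genes in the 4 libraries, in FPKM on a log axis, with circles for replicate 1, triangles for replicate 2 and short lines for the mean of 2 libraries. The knockdown points of PLCG1, PIK3R2 and PIK3CD lie below their control points, while those of AKT1, AKT2, PIK3CA and PIK3R1 overlap them.

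PLCG1, the phospholipase that receptor and SRC-family kinases switch on by tyrosine phosphorylation, showed the lowest fold change of the 8. It measured 7.66 and 7.33 FPKM in controls 1 and 2, against 4.19 and 4.55 FPKM in knockdowns 1 and 2. Both knockdown values lay well under both controls, and the means were 7.50 ± 0.231 and 4.37 ± 0.255 FPKM (SD, n = 2 libraries each). On the log2 scale the difference was -0.66 (standard error 0.078), with a 95% confidence interval of -0.85 to -0.48 (limma, adjusted p = 0.00322). The gene spans 41136960 to 41196801 of chromosome 20, plus strand (hg38, GENCODE 44). On the opposite strand it overlaps ZHX3 and the long noncoding RNA PLCG1-AS1, which share 2.78% and 2.29% of its exon bases. PLCG1-AS1 was at most at 0.204 FPKM and ZHX3 was between 1.47 and 1.73 FPKM. Without stated use of strand in the counting, reads in the shared bases cannot be assigned. The next gene on the lower-coordinate side, TOP1, which encodes DNA topoisomerase I, also fell, with a log2 fold change of -0.53 (limma, adjusted p = 0.00259).

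PIK3R2 encodes p85 beta, a regulatory subunit of class I PI3K. It measured 16.5 and 14.5 FPKM in controls 1 and 2, against 10.7 and 10.2 FPKM in knockdowns 1 and 2, and again the groups did not overlap. On the log2 scale the difference was -0.53 (standard error 0.080), with a 95% confidence interval of -0.72 to -0.34 (limma, adjusted p = 0.00683). PIK3R2 spans 18153163 to 18170532 of chromosome 19, plus strand (hg38, GENCODE 44). A GENCODE protein-coding gene without a symbol on the same strand, ENSG00000268173, shares 76.4% of its exon bases, so the value belongs to the locus as much as to PIK3R2. IFI30, a lysosomal thiol reductase gene that starts 2630 bases further on, moved the other way, with a log2 fold change of 0.41 (adjusted p = 0.0327 in limma).

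To set promoter sequence beside these values, the 250 bases before each RefSeq start (GRCh38.p14) were searched on both strands. Motifs were the C/EBP palindrome TTGCGCAA, the wider C/EBP form TTGCNNAA, which includes the palindrome, the C/EBP-ATF composite element TGATGNAA, the cAMP response element TGACGTCA, the CCAAT box (CCAAT) and the GC box (GGGCGG). PIK3R2, like PLCG1, kept its call in all alternatives. The PIK3R2 window, chr19:18152913-18153162 on the plus strand, is shown 5′ to 3′ up to the base before the start. Capitals mark matches, which were GC boxes only.
PIK3R2: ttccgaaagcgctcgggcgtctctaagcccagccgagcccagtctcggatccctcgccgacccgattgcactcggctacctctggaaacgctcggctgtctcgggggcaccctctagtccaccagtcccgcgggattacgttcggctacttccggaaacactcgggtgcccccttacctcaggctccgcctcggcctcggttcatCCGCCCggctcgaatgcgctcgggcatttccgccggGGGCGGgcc

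The PIK3R2 window held 2 GC boxes and 67.6% G and C, against a median of 58.0% over all 35116 windows. The PLCG1 window held 3 GC boxes, no other match and 82.8% G and C, and it lies within the first exon of a GENCODE transcript of PLCG1 that starts further upstream. A GC box was found in 42.6% of all windows and in 65.0% of the 12175 windows of tested genes. The wider C/EBP form was found in 9.05% of all windows and 6.30% of those of tested genes, and the composite element in 3.14% and 1.52%. The C/EBP palindrome was found in 0.131% and 0.23%, the cAMP response element in 1.65% and 2.75%, and the CCAAT box in 32.0% and 33.7%. RefSeq gave 16 windows for the 8 genes, as some have several starts. PIK3CD had 3 windows, of which 1 held TTGCATAA and another TTGCAAAA, both forms of TTGCNNAA. PIK3R1 had 1 window with TGATGTAA, a form of the composite element. A match is a run of letters and not a measured binding site.

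The other regulatory gene, PIK3R1 (p85 alpha and its shorter forms), had the lowest level of the 8. Its values were 3.70 and 3.44 FPKM in controls 1 and 2, against 3.83 and 3.40 FPKM in knockdowns 1 and 2, which overlap. The log2 fold change was 0.015 with a 95% confidence interval of -0.20 to 0.23 (limma, adjusted p = 0.922). PIK3R1 spans 68215740 to 68301821 of chromosome 5, plus strand (hg38, GENCODE 44).

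Of the catalytic genes, PIK3CD encodes p110 delta, the form enriched in white blood cells. It measured 6.59 and 5.73 FPKM in controls 1 and 2, against 4.77 and 4.42 FPKM in knockdowns 1 and 2, so that the groups did not overlap but lay close. On the log2 scale the difference was -0.35 (standard error 0.091), with a 95% confidence interval of -0.57 to -0.14 (limma, adjusted p = 0.0359). The call was kept without control 2 (adjusted p = 0.038 in limma), but without control 1, knockdown 1 or knockdown 2 the log2 fold change was -0.27, -0.40 or -0.31 and the adjusted p was 0.128, 0.091 or 0.141 (limma). PIK3CD spans 9629889 to 9729114 of chromosome 1, plus strand (hg38, GENCODE 44). At its end it meets CLSTN1, a gene for a calcium-binding membrane protein on the opposite strand, with which it shares 1.98% of its exon bases. CLSTN1 rose from 6.19 and 6.38 FPKM to 9.47 and 9.70 FPKM (log2 fold change 0.54, limma adjusted p = 0.00402). The antisense transcript PIK3CD-AS2 was at 5.92 and 5.36 FPKM in the controls and at 6.60 and 6.13 FPKM in the knockdowns.

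PIK3CB, for the widely expressed p110 beta, was the most abundant catalytic gene. It measured 20.7 and 20.6 FPKM in controls 1 and 2, against 18.5 and 20.2 FPKM in knockdowns 1 and 2. The groups did not overlap, yet the log2 fold change of -0.088 was not called, with a 95% confidence interval of -0.25 to 0.072 (limma, adjusted p = 0.382). PIK3CB spans 138652698 to 138834928 of chromosome 3, minus strand.

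PIK3CA, for p110 alpha, measured 8.96 and 8.29 FPKM in controls 1 and 2, against 9.14 and 8.51 FPKM in knockdowns 1 and 2, and the groups overlapped. Its log2 fold change was 0.030 with a 95% confidence interval of -0.15 to 0.21 (limma, adjusted p = 0.806). PIK3CA spans 179148114 to 179240093 of chromosome 3, plus strand (hg38, GENCODE 44, as for PIK3CB). It shares 19.8% of its exon bases with KCNMB3, a potassium channel subunit gene on the opposite strand, which rose (log2 fold change 0.27, adjusted p = 0.0371 in limma). PIK3CA also has a near-identical pseudogene copy elsewhere in the genome, so its level is uncertain.

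AKT1 and AKT2, the kinases downstream of PIP3, were among the more abundant of the 8. AKT1 measured 53.9 and 48.0 FPKM in controls 1 and 2, against 54.0 and 52.8 FPKM in knockdowns 1 and 2. AKT2 measured 20.9 and 18.1 FPKM in controls 1 and 2, against 20.8 and 21.1 FPKM in knockdowns 1 and 2. For both genes control 2 was the lowest library and the groups overlapped. The log2 fold changes were 0.069 for AKT1 (95% confidence interval -0.098 to 0.24, limma adjusted p = 0.515) and 0.10 for AKT2 (-0.090 to 0.29, 0.405). AKT1 spans 104769349 to 104795751 of chromosome 14 and AKT2 spans 40230317 to 40285536 of chromosome 19, both minus strand (hg38, GENCODE 44).

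**Figure D2:**
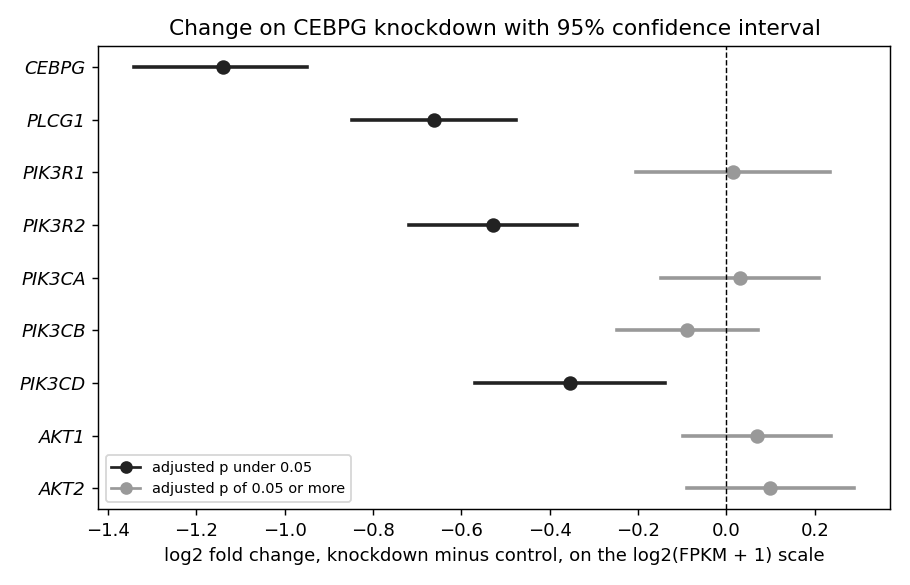
Log2 fold change (knockdown minus control, log2(FPKM + 1) scale) of CEBPG and the 8 genes as points, with 95% confidence intervals from limma as lines, black for an adjusted p under 0.05 and grey otherwise. The intervals of PLCG1, PIK3R2 and PIK3CD lie below 0, and those of the other 5 genes include 0 and stay within -0.25 and 0.29.

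In the controls, levels ran in the order AKT1, PIK3CB, AKT2, PIK3R2, PIK3CA, PLCG1, PIK3CD and PIK3R1, from a mean of 50.9 FPKM for AKT1 to 3.57 FPKM for PIK3R1. Of neighbours in this order, PIK3CB and AKT2 overlapped between the control libraries. In the knockdowns PIK3CB and AKT2 no longer overlapped, and PLCG1 and PIK3CD did. By mean level over the 4 libraries, AKT1 stood above 88.4% of tested genes and PIK3R1 above 22.7%.

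The share of each gene in the PI3K subunit transcripts was also computed. PIK3R2 held 81.7% and 80.9% of the summed PIK3R1 and PIK3R2 level in controls 1 and 2, against 73.6% and 75.0% in knockdowns 1 and 2. The ratio of regulatory (PIK3R1 + PIK3R2) to catalytic (PIK3CA + PIK3CB + PIK3CD) transcripts was 0.559 and 0.519 in controls 1 and 2, against 0.449 and 0.410 in knockdowns 1 and 2. PIK3CD made up 18.2% and 16.6% of the catalytic sum in controls 1 and 2, against 14.7% and 13.3% in knockdowns 1 and 2. In each of these measures both knockdown libraries lay below both controls, by more than the spread within groups. Each includes PIK3R2 or PIK3CD, so they partly restate the calls on these genes. The PIK3CA share of the catalytic sum rose, from 24.73% and 23.96% in controls 1 and 2 to 28.23% and 25.65% in knockdowns 1 and 2. That of PIK3CB overlapped, with 57.06% and 59.47% against 57.05% and 61.01%. AKT2 held 28.0% and 27.4% of the AKT sum in controls 1 and 2, against 27.8% and 28.5% in knockdowns 1 and 2, which overlap. These shares were not tested. With 2 libraries against 2, the smallest p of an exact permutation test is 0.333.

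PLCG2, the second phospholipase C gamma, is the main form in B cells and was close to the filter here. It was at 1.09 FPKM in both controls and at 0.796 and 0.865 FPKM in knockdowns 1 and 2, with a mean under 1 FPKM, and was not tested. PLCG1 held 87.5% and 87.1% of the summed PLCG1 and PLCG2 level in controls 1 and 2, against 84.0% in both knockdowns.

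The table gave 16 RefSeq transcripts for the 8 genes, of which 12 had a mean of at least 1 FPKM. For PLCG1 the transcript NM_182811 measured 5.08 and 3.84 FPKM in controls 1 and 2, against 1.60 and 2.17 FPKM in knockdowns 1 and 2. The other PLCG1 transcript, NM_002660, measured 2.58 and 3.49 FPKM in controls 1 and 2, against 2.59 and 2.38 FPKM in knockdowns 1 and 2, and its groups overlapped. NM_182811 thus held 66.3% and 52.4% of PLCG1 in the controls and 38.2% and 47.7% in the knockdowns.

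For PIK3R2 nearly the whole level came from NM_005027, with 95.3% to 99.7% of the gene. The noncoding transcript NR_073517 measured 0.408 and 0.678 FPKM in controls 1 and 2, against 0.0603 and 0.0297 FPKM in knockdowns 1 and 2. AKT2 was carried by NM_001626, whereas its minor transcript NM_001243028 measured 0.754 and 1.22 FPKM in controls 1 and 2, against 3.01 and 2.34 FPKM in knockdowns 1 and 2. That transcript was 3.60% and 6.74% of AKT2 in the controls and 14.5% and 11.1% in the knockdowns.

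None of the 12 member transcripts had an adjusted p under 0.05 in limma over 15795 transcripts, of which 0.158% were called, while 4 of the 12 had an unadjusted p under 0.05 (NM_182811, NM_005027, NM_005026 of PIK3CD and NM_001243028), as had 20.3% of all transcripts tested. The main CEBPG transcript, NM_001806, was not called either, at a log2 fold change of -1.15 (limma, adjusted p = 0.0587). NM_005026 has the same values as the PIK3CD gene, yet its adjusted p was 0.221, against 0.0359 for the gene (limma). The lack of transcript calls thus says little about the members. The log2 fold changes were -0.92 for NM_182811 (limma, adjusted p = 0.134) and 0.89 for NM_001243028 (0.153). NM_001243028 averaged 0.986 FPKM in the controls and passed the minimum of 1 FPKM only through the knockdowns. Its p-values are therefore no support for a rise. The division of reads between transcripts of a gene is an estimate.

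**Figure D3:**
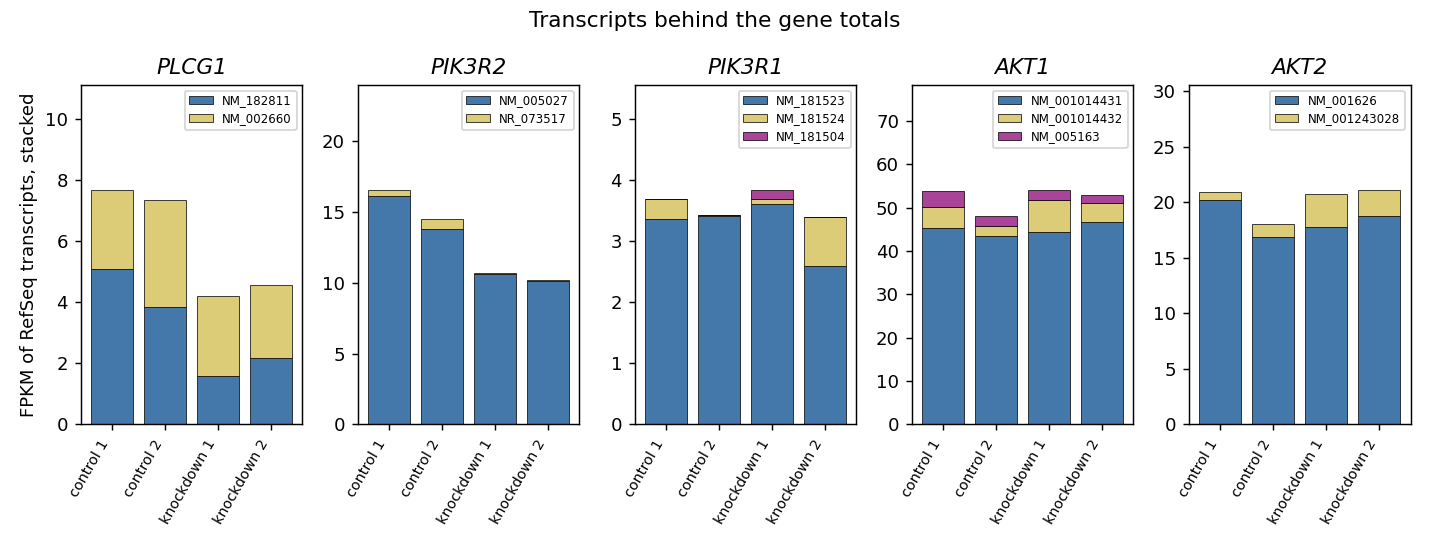
FPKM of each RefSeq transcript of PLCG1, PIK3R2, PIK3R1, AKT1 and AKT2, stacked to the gene total in each library. The NM_182811 part of PLCG1 is smaller in both knockdowns, from 5.08 and 3.84 FPKM to 1.60 and 2.17 FPKM, while the NM_002660 part overlaps between groups.

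Genes with profiles most like those of PLCG1 and PIK3R2 were read among tested genes averaging 10 FPKM or more, by the root mean square difference of log2 values centred on each gene over the 4 libraries. Nearest to PLCG1 of 5440 genes were JPT2 (0.0179), COIL, which encodes the Cajal body protein coilin (0.0224), and MAK16, a ribosome biogenesis gene (0.0275), with log2 fold changes of -0.67, -0.64 and -0.64. Nearest to PIK3R2 of 5439 genes were KNSTRN, a mitotic spindle gene (0.0164), ATP2A3, which encodes a calcium pump of the endoplasmic reticulum (0.0189), and TLNRD1 (0.024), with log2 fold changes of -0.53, -0.54 and -0.54.

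Around the 8 genes, 139 other genes of the pathway were listed in 11 groups, 130 were in the table and 104 were tested. Of the 104, 21 were called higher and 7 lower, or 26.9%, against 20.9% of all genes, and the median log2 fold change was 0.093 against 0.015 over all genes. By group, with 5 to 16 genes tested in each, the share called ran from 0% (other PI3K subunits) to 58.3% (AKT substrates). These counts changed when 1 library was left out. Such a fit keeps 1 library in that group, so a call can be lost though the estimate stays. For GADD45A the log2 fold change was 0.403 in the main fit, and 0.403 and 0.404 without knockdown 1 and 2. Its standard error rose from 0.0619 to 0.0967 and 0.0973. For BAD the log2 fold change did move, from 0.424 to 0.291 and 0.557. Without knockdown 1, knockdown 2 or control 2 the number higher was 4, 2 or 11, and without knockdown 2 the number lower was 4. Over all genes tested the number called also fell from 2288 to 825 without knockdown 1 and to 838 without knockdown 2. The calls on 4 of the 28 genes were kept in each fit that left out 1 library, and all 4 genes were lower: LYN, PLCB2, RASGRP2 and TBC1D4.

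Of the list genes tested, the one with the lowest log2 fold change on the log2(FPKM + 1) scale stood upstream of PLCG1. LYN, a SRC-family kinase of myeloid and B cells, measured 30.0 and 29.8 FPKM in controls 1 and 2, against 13.5 and 14.9 FPKM in knockdowns 1 and 2. Its log2 fold change was -1.02 (standard error 0.068, limma adjusted p = 0.000781). Of the 10 tested kinases and scaffolds upstream of PLCG1, SRC, the adaptor SH3BP2 and the receptor KIT were called higher, with log2 fold changes of 0.46, 0.49 and 0.48, and 6 were not called. The calls on these 3 were lost without knockdown 2, with adjusted p of 0.0795, 0.0946 and 0.107 (limma). SRC and KIT were also lost without knockdown 1 (0.144 and 0.101), SRC and SH3BP2 without control 2 (0.113 and 0.0598) and KIT without control 1 (0.0795). KIT averaged 0.996 FPKM in the controls and 1.79 FPKM in the knockdowns. It passed the minimum of 1 FPKM only through the knockdowns, so its call is no support for a rise. SYK, which relays receptor signals to PLCG1, was at 8.18 and 7.58 FPKM in the controls and at 7.06 and 7.08 FPKM in the knockdowns and was not called (limma, adjusted p = 0.216).

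Of 5 other phospholipase C genes tested, PLCB2, a form coupled to G proteins in blood cells, fell from 4.26 and 3.81 FPKM to 1.96 and 1.94 FPKM (log2 fold change -0.77, limma adjusted p = 0.00369). PLCD3 rose by 0.42 (0.0153), a call that was lost without knockdown 1 (0.0873) or control 2 (0.0511), and 3 were not called. Downstream, of 13 genes of the diacylglycerol arm, the exchange factor RASGRP2 fell from 5.20 and 4.45 FPKM to 2.32 and 2.26 FPKM (log2 fold change -0.82, limma adjusted p = 0.00333). The kinase gene PRKCB rose by 0.23 (0.0307), a call lost in each of the 4 fits with 1 library left out (0.0502 to 0.20), and 11 were not called. Of 16 genes of the IP3, calcium and NFAT arm, the IP3 receptor ITPR1 was called higher (0.39, limma adjusted p = 0.0176). That call was lost without knockdown 1 (0.0684), knockdown 2 (0.0838) or control 1 (0.058).

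Among enzymes of the lipid itself, none of the 5 other PI3K genes tested was called. PIK3CG, for the p110 gamma form used by G protein-coupled receptors, came closest, with 3.17 and 3.52 FPKM in controls 1 and 2, against 2.18 and 2.60 FPKM in knockdowns 1 and 2 (log2 fold change -0.36, limma adjusted p = 0.0524). Of 9 phosphatases of PI3K lipids and AKT, INPPL1 (SHIP2), INPP5E and SYNJ2 were called higher, with log2 fold changes of 0.32, 0.36 and 0.33, and 6 were not called. The 3 calls were lost without knockdown 1 (limma, adjusted p of 0.118, 0.12 and 0.0976) or knockdown 2 (0.0833, 0.0619 and 0.129), and those on INPP5E and SYNJ2 also without control 1 (0.0572 and 0.0627) or control 2 (0.0685 and 0.102). Of 11 genes of phosphoinositide synthesis tested, the kinase PIP4K2A rose by 0.38 and CDIPT, the phosphatidylinositol synthase, by 0.33 (limma, adjusted p = 0.00641 and 0.0231). Without knockdown 1 or knockdown 2 the adjusted p was 0.0505 or 0.0502 for PIP4K2A and 0.134 or 0.0515 for CDIPT, and without control 1 it was 0.0604 for CDIPT.

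Of 9 adaptors upstream of PI3K tested, GAB2 and SHC1 were called higher, with log2 fold changes of 0.38 and 0.31 (adjusted p = 0.0128 and 0.0472 in limma), and 7 were not called. GAB2 was lost without knockdown 2 (0.076), and SHC1 without knockdown 1, knockdown 2 or control 2 (0.23, 0.0789 and 0.134). None of 5 tested AKT activators, such as PDPK1, RICTOR and MTOR, was called.

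Of 12 AKT substrates tested, 3 fell and 4 rose. The glucose transport regulator TBC1D4 fell from 6.79 and 7.31 FPKM to 4.48 and 4.57 FPKM (log2 fold change -0.54, limma adjusted p = 0.00561). AKT1S1, an inhibitor of mTOR complex 1, and GSK3A, a kinase that AKT inhibits, were called lower, by -0.48 and -0.29 (0.0187 and 0.0181). Called higher were MDM2 (0.44), BAD (0.42), CDKN1B (0.26) and TSC2 (0.26), with adjusted p of 0.0112, 0.0356, 0.0346 and 0.045 (limma). Apart from TBC1D4, each lost its call when 1 library was left out, with adjusted p of up to 0.0898 for AKT1S1 and 0.0623 for MDM2 (both without knockdown 2), 0.127 for GSK3A (without knockdown 2, and 0.0688 without knockdown 1), and, all without knockdown 1, 0.158 for BAD, 0.169 for CDKN1B and 0.23 for TSC2. BAD was also lost without control 2 (0.114), CDKN1B and TSC2 without control 1 (0.0958 and 0.089) or knockdown 2 (0.103 and 0.0805), and TSC2 without control 2 (0.112).

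FOXO factors are held out of the nucleus by AKT, and 12 genes known as FOXO targets were tested. Of these 5 were called higher, none lower and 7 were not called, or 41.7% called. Over all genes tested 20.9% were called, 10.9% higher. The median log2 fold change was 0.14, against 0.015 over all genes. Whether AKT activity changed was not tested. GADD45A measured 61.9 and 57.1 FPKM in controls 1 and 2, against 79.0 and 78.9 FPKM in knockdowns 1 and 2 (log2 fold change 0.40, limma adjusted p = 0.00717). The apoptosis activator BCL2L11 rose by 0.47 (0.0105), SESN3 by 0.50 (0.0277), SESN1 by 0.35 (0.0375) and CDKN1B, which also stands among the AKT substrates, as above. Several of these genes answer to other regulators too. Without knockdown 2 the 5 calls were lost, with adjusted p of 0.0552 for GADD45A, 0.0592 for BCL2L11, 0.124 for SESN3, 0.119 for SESN1 and 0.103 for CDKN1B (limma). Calls were also lost without knockdown 1 for GADD45A (0.0558), SESN3 (0.0724) and SESN1 (0.136), without control 1 for SESN3 (0.0867) and without control 2 for SESN1 (0.13).

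**Figure D4:**
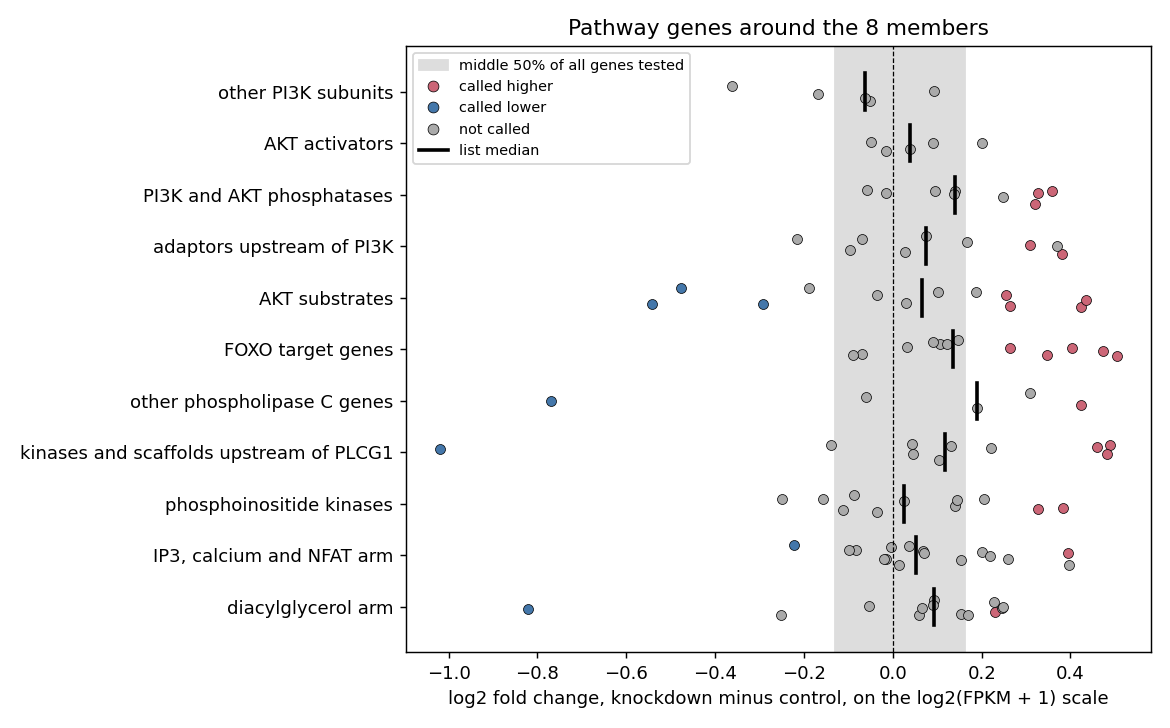
Log2 fold change (knockdown minus control, log2(FPKM + 1) scale) of each tested gene of the 11 pathway groups, red for called higher, blue for called lower and grey for not called, with a bar at each group's median and a grey band for the middle 50% of all tested genes (-0.13 to 0.16). LYN, RASGRP2 and PLCB2 lie farthest to the left, and the called phosphatase, adaptor and FOXO target genes lie to the right of the band.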

How the data were processed

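RNA-seq was analysed for 4 libraries, 2 per group, grouped by the treatment label. The authors deposited FPKM values per RefSeq transcript, after filtering reads and mapping them with HISAT. The submitters' processing notes name HISAT2 2.0.5 and hg38. The quantifier and annotation release are not given in the sources used here. FPKM carry no read counts, so depth was unknown and counting error could not be given.

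Of 29265 rows, 183 held no value and 164 had no symbol (0.25% of FPKM). The other 28918 were summed to 16504 symbols. Genes averaging 1 FPKM or more were compared on log2(FPKM + 1), a scale that understates changes of low genes, in limma 3.58.1 (R 4.3.3) with trended moderation and Benjamini-Hochberg adjustment of 2-sided p-values over all genes tested. Transcripts were fitted likewise. Positions came from GENCODE 44, and promoters from RefSeq. Members, lists and tests were chosen with earlier results of these data known. Named genes were the 8 members, CEBPG, list genes with an adjusted p under 0.05, the 3 nearest profiles of PLCG1 and PIK3R2, overlapping or adjacent genes and markers. SYK, PIK3CG, PLCG2, PDPK1, RICTOR and MTOR were named after their values were seen. Some list genes are not reported here. MPO, ELANE and CTSG, on the marker list, were not found among these 16504 symbols. Results were recomputed with a pseudocount of 0.1, with no filter, a minimum of 5 FPKM, a replicate block, each library left out, 2 scalings and moderation without a trend. Figures were drawn with matplotlib 3.10.9.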

Additional observations from a re-analysis of the deposited data

How the results depend on the processing

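The calls on PLCG1 and PIK3R2 were kept in all alternatives run. With 1 library left out, log2 fold changes ranged from -0.71 to -0.61 for PLCG1, -0.62 to -0.44 for PIK3R2, -0.44 to -0.27 for PIK3CD, -0.053 to 0.083 for PIK3R1, -0.020 to 0.081 for PIK3CA, -0.15 (without knockdown 2) to -0.026 (without knockdown 1) for PIK3CB, -0.013 to 0.15 for AKT1 and -0.00083 to 0.20 for AKT2. PIK3CD was not called with no filter (-0.35, limma adjusted p = 0.113), and PIK3R1 was at -0.0023 with columns scaled to one sum. With no filter 882 genes were called (426 higher, 456 lower), with 2 pathway list genes higher. With 1 library left out the numbers were 825 to 1925 genes (406 to 1207 higher, 419 to 915 lower), with 2 to 14 pathway list genes higher and 4 to 7 lower. The labels tie no shared batch or day to the replicate numbers (deviations of same-numbered libraries correlated at 0.101). With a replicate block 3440 genes were called, 1818 higher and 1622 lower, and the members' calls were as without it. With the highest transcript of each gene in place of the sum, differences in share were -4.30 points for PIK3R2, -0.78 for AKT2 (0.48 with sums) and -11.0 for PLCG1. The cause was not tested.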
